A study of Mus musculus with 40 samples.

Results

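Genes that fell late when Ctbp2 was raised in Ctbp-deficient mouse embryonic stem cells, and that lagged on the way back, were followed through 3 count tables. They were chosen from the time course alone. A gene was taken when its mean level at day 0 was at least 1 CPM (a gene's count scaled to a common library total), its day 3 mean was at least 0.67 of day 0, and its day 9 and day 12 means were each at most 0.5 of day 0. Symbols starting with Zscan4, Usp17l, Tdpoz, Tcstv or Pramel were left out. The rule found 67 of 55276 genes, out of 16184 that reached 1 CPM at day 0. With the left-out families it would have held 78 genes, the other 11 being 9 Zscan4 and 2 Usp17l genes.

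CtBP1 and CtBP2 are transcriptional corepressors: they do not bind DNA themselves and are brought to genes by sequence-specific factors, where they recruit enzymes that modify histones. A small fraction of mouse embryonic stem cells passes through a state that resembles the 2-cell embryo and switches on genes of zygotic genome activation. Dux, a double-homeobox transcription factor, drives many of those genes, and Dppa2 acts upstream of Dux. Many genes of this program are tandem copies or lie close to endogenous retroviruses.

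All libraries were made from E14tg2a, a mouse embryonic stem cell line grown in serum with leukaemia inhibitory factor. The genotype table held 2 libraries each of WT cells, a Dux knockout (DuxKO), a Dppa2 knockout (Dppa2KO), a Ctbp double knockout (CtbpDKO), a Ctbp and Dux triple knockout (Ctbp-Dux TKO) and a Ctbp and Dppa2 knockout (DKO-Dppa2). The last pair was placed by its description, since its title and genotype name Dppa2 and Dux instead. The Pramel7 table held 4 WT libraries and 2 each of DuxKO, Pramel7 knockout (P7KO), Pramel7 overexpression (P7OE) and Pramel7 overexpression in DuxKO cells (DuxKO-P7OE). For the time course, days 0, 3, 9, 12 and 18 had 2 libraries each, with the genotype given as CtbpDKO and iCt2 in the sample descriptions. Its titles include Dox without saying when it was given or withdrawn. Ctbp2 ran at 58.9 and 57.2 CPM at day 0, at 497 and 557 CPM at day 3, at 340 and 292 CPM at day 9, at 51.9 and 46.7 CPM at day 12, and at 51.2 and 54.6 CPM at day 18. It was therefore high at days 3 and 9 and at its day 0 level at days 12 and 18. Whether lines are single clones is not given in the sources used here. The labels do not say whether replicates were separate cultures, so p-values measure only the spread between these samples, which may be technical.

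Total counts ran from 10123058 to 36025046 per library. Targeted genes were checked first. Ctbp1 held 1911 and 2109 reads in WT, with 1 and 2 left in CtbpDKO, 2 and 4 in Ctbp-Dux TKO, then 4 and 0 in DKO-Dppa2. Ctbp2 transcripts fell but remained, from 6293 and 6591 counts in WT to 1429 and 1568 in CtbpDKO (log2 -2.29, SE 0.08, adjusted p = 7.65e-10), and with 922 and 1187 left in the Ctbp-Dux TKO pair, then 729 and 872 in DKO-Dppa2. Duxf3, the Dux gene of the tables, held 1 and 0 reads in WT, with 40 and 24 in CtbpDKO and 0 in every DuxKO, Dppa2KO, Ctbp-Dux TKO and DKO-Dppa2 library. Dppa2 transcripts were reduced but not absent in Dppa2KO, with 1208 and 1027 counts against 1707 and 1868 in WT, and had 426 and 464 counts in DKO-Dppa2. Those values go with the description of DKO-Dppa2 in Ctbp1 and Dppa2 and do not separate it from its title in Dux. Below, Ctbp or Dppa2 knockout means the genotype label. The 9 embryonic stem cell markers summed to between 2080 and 4290 CPM over all libraries. Markers of other cells summed to 2.79 to 58.9 CPM for endoderm, 4.83 to 30.5 for trophoblast, 9.47 to 38.1 for fibroblasts, 56.2 to 113 for neural cells and 1.39 to 22.5 for mesoderm. In the genotype table the 5 endoderm markers summed to means of 12.7 CPM in WT, 23 in CtbpDKO, 58.6 in Ctbp-Dux TKO and 7.54 in DKO-Dppa2. The 5 trophoblast markers summed to 6.55 CPM in WT, 19.9 in CtbpDKO, 18.6 in Ctbp-Dux TKO and 20.1 in DKO-Dppa2, and the 11 fibroblast markers stood at 12.8, 29.0, 27.2 and 16.3. In the Pramel7 table endoderm markers summed to 3.92 CPM in WT, 33.2 in P7OE and 32.1 in DuxKO-P7OE. The part of these cells in the results was not tested.

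RefSeq (GRCm38.p6, mm10) matched 51 of the 67 members, of which 28 are protein-coding, 18 pseudogenes and 5 small RNAs. The other 16 were named only in the count tables. Predicted symbols (Gm and a number) made up 43 of the 67. Most members were weakly expressed: 32 had 1 to 2 CPM at day 0, 22 had 2 to 5 CPM and 11 had 10 CPM or more. Of the members, 22 lay in 8 clusters whose neighbours were within 1000000 bp. The 4 members at chr10:104142987-104188000 were Gm21293, Gm6763, Gm8764 and Gm20765. The 4 at chr12:87772425-88321762 were Gm21319, BB287469, Gm8607 and Gm5039, copies of an Eif1a-like family known from 2-cell embryos. Dmrtc1c1 and Dmrtc1c2 are neighbouring X-linked copies at chrX:102797880-102857207. Reads of such copies may have been split between them by the counting, so the values of a single copy are uncertain.

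Promoters (the 250 bases before the start) were found in the RefSeq table for 24 of the 67 members. Those of Gm20765, Sp110 and Zfp352 are shown because a 15-base stretch, in capitals, occurs 2, 3 and 3 times in them. Sp110 encodes an interferon-inducible nuclear body protein, and Zfp352 encodes a zinc finger protein known as a marker of the 2-cell stage. The stretch was chosen after the sequences were seen. Gm20765 lies at chr10:104185283-104185532 on the plus strand, Sp110 at chr1:85603892-85604141 on the minus strand and Zfp352 at chr4:90218570-90218819 on the plus strand, each 5′ to 3′ along its gene. The start that the table gives for Sp110 is an internal one, since its gene spans chr1:85570735-85610850.
Gm20765: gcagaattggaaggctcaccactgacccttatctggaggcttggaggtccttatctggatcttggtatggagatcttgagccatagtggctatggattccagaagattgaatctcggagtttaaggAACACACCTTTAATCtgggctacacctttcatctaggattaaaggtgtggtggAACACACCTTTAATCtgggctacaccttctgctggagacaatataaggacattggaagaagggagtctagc
Sp110: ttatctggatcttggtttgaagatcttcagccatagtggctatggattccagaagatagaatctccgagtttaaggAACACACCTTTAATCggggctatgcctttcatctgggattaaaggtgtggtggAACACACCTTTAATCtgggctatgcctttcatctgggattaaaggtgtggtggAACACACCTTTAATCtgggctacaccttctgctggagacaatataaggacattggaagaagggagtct
Zfp352: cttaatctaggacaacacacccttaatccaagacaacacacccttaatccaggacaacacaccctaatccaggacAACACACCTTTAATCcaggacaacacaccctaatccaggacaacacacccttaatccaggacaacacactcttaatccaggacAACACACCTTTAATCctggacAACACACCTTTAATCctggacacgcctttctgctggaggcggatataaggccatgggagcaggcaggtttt
The stretch was in 5 of the 24 member promoters, and in 22 of 27025 promoters overall (0.0814%). It was taken as the longest stretch shared by Gm20765, Sp110 and Zfp352, so it had to occur in those 3. The promoters of Gm20765, Gm21293 and Gm8764 were identical over the 250 bases, so none of the 5 matches was free. The share among members therefore cannot be set against that of all promoters. An 86-base stretch, taken as the longest shared by Gm20765 and Sp110, was for the same reasons in Gm20765, Gm21293, Gm8764 and Sp110. It was in 9 of 27025 promoters overall (0.0333%).

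A core of the motif that Dux is known to bind, TGATTNNAT (searched on both strands, chosen after the data were seen), was in 4 of 24 member promoters (16.7%) and in 2.83% of all 27025. The 4 are shown with the match in capitals. BB287469 (chr12:87816327-87816576, plus strand) and Gm21319 (chr12:87775756-87776005, minus strand) are Eif1a-like copies, Gm21761 (chr13:119913469-119913718, minus strand) is a predicted gene on the 2-cell list, and Abcb5 (chr12:118966422-118966671, minus strand) encodes an ATP-binding cassette transporter.
BB287469: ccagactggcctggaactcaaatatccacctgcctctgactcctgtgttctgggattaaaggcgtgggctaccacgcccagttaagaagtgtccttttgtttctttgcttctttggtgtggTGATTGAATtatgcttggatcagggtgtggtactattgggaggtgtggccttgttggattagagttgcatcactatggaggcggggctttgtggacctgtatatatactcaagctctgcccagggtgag
Gm21319: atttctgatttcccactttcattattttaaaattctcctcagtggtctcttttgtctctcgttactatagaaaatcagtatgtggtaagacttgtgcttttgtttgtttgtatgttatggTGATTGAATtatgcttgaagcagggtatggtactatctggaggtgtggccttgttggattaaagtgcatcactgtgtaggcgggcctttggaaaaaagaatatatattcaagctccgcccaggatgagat
Gm21761: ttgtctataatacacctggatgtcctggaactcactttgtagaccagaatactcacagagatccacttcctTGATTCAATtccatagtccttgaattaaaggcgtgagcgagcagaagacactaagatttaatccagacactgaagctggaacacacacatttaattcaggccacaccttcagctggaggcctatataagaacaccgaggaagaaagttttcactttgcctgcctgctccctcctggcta
Abcb5: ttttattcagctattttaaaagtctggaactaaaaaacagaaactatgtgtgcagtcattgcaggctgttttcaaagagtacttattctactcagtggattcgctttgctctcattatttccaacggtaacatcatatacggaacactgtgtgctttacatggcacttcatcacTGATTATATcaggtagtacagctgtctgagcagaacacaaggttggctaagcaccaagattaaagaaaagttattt
The longer 11-letter form of the Dux motif overlaps this core and was in 2 of the 24 (8.33%), BB287469 and Gm21319, against 0.352% of all. These 2 are Eif1a-like copies of the same cluster, so their matches to either form are not independent. The E-box CACCTG, bound by Zeb and Snail factors that work with CtBP, was in 4 of 24 (16.7%) against 17.1% of all, and CCACCC, bound by Klf factors, in 3 of 24 (12.5%) against 27.6% (both strands). A match is a description of the letters and not a site. The observed over expected CpG ratio had a median of 0.26 in the members and 0.379 in all promoters, and reached 0.6 in 4 of 24 members against 34.5% of all.

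The fall and the return were followed first, as a description, since these libraries chose the members. The median member stood at 84.7% of its day 0 level at day 3, when Ctbp2 was already at its highest. It stood at 26.6% at day 9 and at 31.3% at day 12, when Ctbp2 was back at its day 0 level. By day 18 the median was 70.1%, with members between 22.1% and 156%. At day 18, 38 of the 67 were at or above 0.67 of day 0, against 94.2% of the 16184 genes expressed at day 0, and 13 were still at or below 0.5. The rise from day 12 to day 18 was at least 2-fold in 43 members, against 1.58% of expressed genes. Days 12 and 18 are set here against the same day 0 libraries that chose the members.

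The replicates did not carry the rule equally. It held within replicate 1 alone for 17 members, within replicate 2 alone for 41, and within each alone for 7, while 59 members had all 4 day 9 and day 12 libraries below all 4 day 0 and day 3 libraries. Just inside and just outside the thresholds, Sfmbt2 kept 0.67 of its level at day 3 and Gm5590 kept 0.659. At day 12 Prkca stood at 0.503 of day 0 and stayed out, while the spliceosomal RNA gene Gm25679 was in with 0.5 at day 9. Gm12794 entered with 1.02 CPM at day 0 and Gm4930 missed with 0.982 CPM. Duxf3 missed by its day 0 level of 0.906 CPM alone, and stood at 111%, 44.8%, 30.8% and 125% of day 0 at days 3, 9, 12 and 18.

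**Figure D1:**
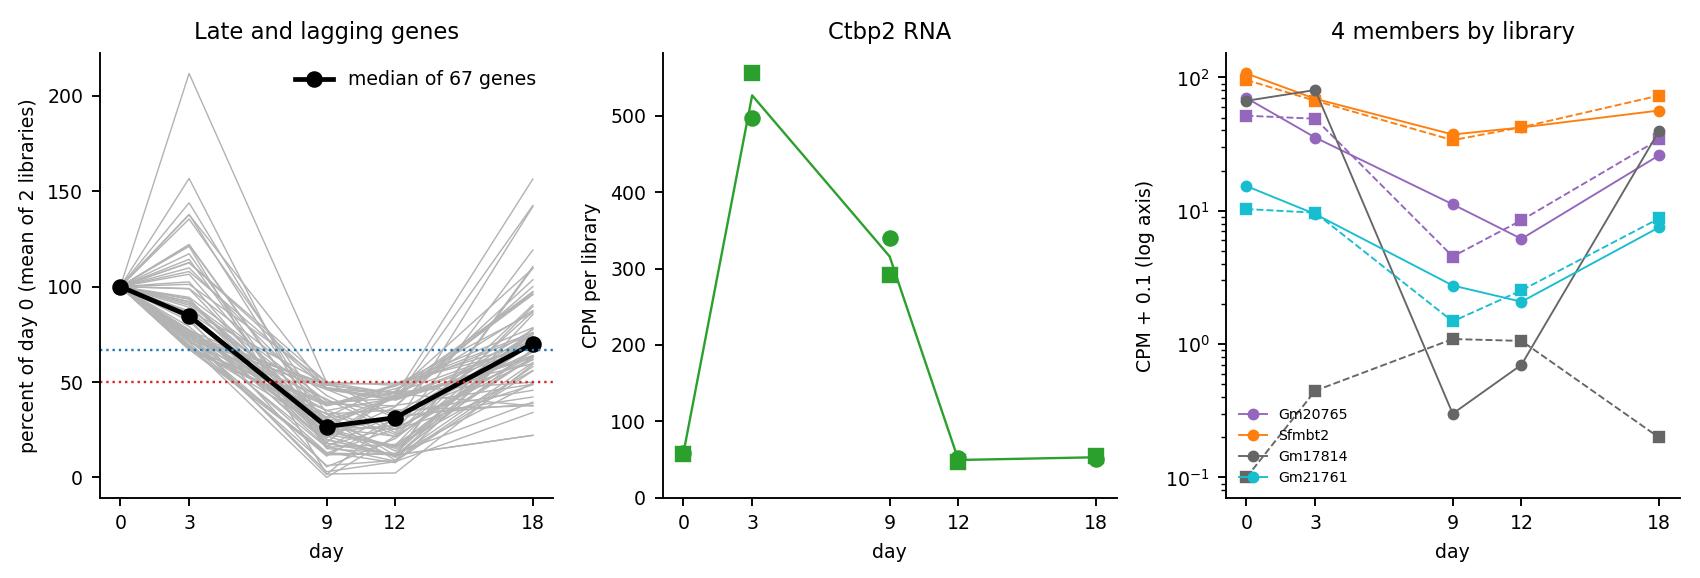
Left, each of the 67 members (grey) and their median (black) as a percent of the day 0 mean against day, with dotted lines at the thresholds of 50 and 67%; middle, Ctbp2 in CPM per library; right, CPM + 0.1 of 4 members per library on a log axis (solid lines replicate 1, dashed replicate 2). The median stood at 84.7% at day 3 and 26.6% at day 9 while Ctbp2 was high, and at 31.3% at day 12 and 70.1% at day 18 after Ctbp2 was back at its day 0 level.

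Of the 67 members, 7 were on a list of 35 known 2-cell genes outside the left-out families, of which 20 were expressed at day 0. Gm21761 stood at 15.2 and 10.2 CPM at day 0, 9.35 and 9.57 at day 3, 2.65 and 1.38 at day 9, 1.98 and 2.43 at day 12, and 7.40 and 8.65 at day 18. Both late pairs were below both early pairs, and day 18 lay between. Tmem92, a transmembrane protein gene known as a 2-cell marker, stood at 1.94 and 2.37 CPM at day 0, 1.25 and 2.08 at day 3, 0.964 and 0.345 at day 9, 0.120 and 0.478 at day 12 and 1.77 and 1.49 at day 18. Sp110 fell to 41.0% at day 9 and 23.4% at day 12 and stood at 119% at day 18. Zfp352 was at 12.6% of its 1.06 CPM at day 12 and at 39.5% at day 18. BB287469, Gm6763 and Gm12794, a gene of the Prame family that RefSeq names Pramel19, stood at 66.0%, 110% and 86.9% at day 18. The other 13 expressed genes of the list failed the rule, 12 of them by standing below 0.67 at day 3, and 10 of the 13 were also at or below 0.5 at both late days. No gene of the other 14 lists (pluripotency, DNA methylation, germline, imprinted, interferon, lineage and other genes) was a member. Those lists are short, and Sfmbt2, which is imprinted, and Sp110, which is interferon-inducible, are not on the imprinted and interferon lists.

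Outside that list the members differed in depth and return. Sfmbt2, an imprinted Polycomb group gene, stood at 107 and 95.6 CPM at day 0, 69.0 and 66.7 at day 3, 37.3 and 33.7 at day 9, 42.0 and 42.2 at day 12 and 56.4 and 73.1 at day 18. Each pair was close, and no day 9 or day 12 library reached a day 0 or day 3 value. Cacna1s, a calcium channel subunit of skeletal muscle, and Spesp1, which encodes a sperm equatorial segment protein, stood at 68.7% and 61.7% of day 0 at day 18. Fam124a was at 38.5% at day 9, 37.5% at day 12 and 100% at day 18. Dmrtc1c1 and Dmrtc1c2, members of the Dmrt family, had the highest day 18 values among these, 142% and 156% of 2.62 CPM each. The ribosomal protein pseudogenes were uneven between libraries: Rps27a-ps2 had 40.5 and 315 CPM at day 3, so that its day 3 mean of 89.2% rests on 1 library, and Rpl7-ps7 had 4.03 and 9.30 CPM at day 0. Pramef25, which RefSeq names Pramel16 and which the rule's family names therefore did not leave out, was at 0 in both day 9 libraries and at 65.9% at day 18. The fall was deeper in members nearly silent in Ctbp-Dux TKO cells: the 30 with at most 3 counts in both Ctbp-Dux TKO libraries had medians of 19% at day 9 and 14.6% at day 12, against 37.6% and 40.9% in the other 37. Both sets had similar medians at day 3 (84.3% and 84.7%) and at day 18 (72.0% and 68.7%). This split was made after values were seen and was not tested.

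The genotype table does not enter the rule, and in it most members were higher with Ctbp knocked out. Of the 67, 43 were called higher in CtbpDKO than in WT and 0 lower (edgeR's quasi-likelihood test over 21193 genes, Benjamini-Hochberg adjusted p below 0.05; 64 members tested). Of all tested genes, 14.7% were called higher and 11.4% lower, and of those with a day 0 mean of at least 1 CPM 17.7% were called higher. Without adjustment 44 were higher and 2 lower, and DESeq2 called 31 higher and 0 lower. The day 0 cells of the rule are CtbpDKO cells as well, so a gene silent in CtbpDKO cells could hardly become a member. The filter adds to this: 33 of the 64 tested members had fewer than 2 libraries at its level outside CtbpDKO, so they were tested only because they were high there, and all 33 were called. Of the other 31 tested members 10 were called. With no filter on low counts 45 members were called higher and 5 lower. The calls took in 23 of 28 protein-coding members, 11 of 18 pseudogenes, 9 of 16 unmatched members and 0 of 5 small RNAs. The median log2 ratio over all members was 2.85 (pseudocount 0.1 CPM), against 0.04 over expressed genes. In this bulk RNA, fewer cells of a type and less RNA per cell cannot be told apart. Leaving out CtbpDKO replicate 2 left 26 calls and leaving out WT replicate 2 left 28.

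Many of these genes went from nearly silent to low expression. Of the 43, 29 had at most 3 counts in each WT library. Gm21761 held 0 and 2 reads in WT against 190 and 204 in CtbpDKO, a level of 5.98 ± 0.395 CPM (SD, n = 2) and at least 59.2-fold higher (bound at 3 counts per library; adjusted p = 4.49e-05). BB287469 had 0 counts in both WT libraries and 68 and 85 in CtbpDKO, at least 23-fold higher (adjusted p = 0.00039). Tmem92 held 0 and 2 reads in WT against 58 and 75 in CtbpDKO, at least 20-fold higher (adjusted p = 0.00156). In all 3 genes the groups stood far apart. Sp110 had 0 counts in WT and 34 and 44 in CtbpDKO (at least 11.7-fold, adjusted p = 0.0012). Gm6763 held 0 and 1 reads in WT against 43 and 38 in CtbpDKO, at least 12.1-fold higher (adjusted p = 0.00385). Zfp352 had 0 and 2 counts against 8 and 16, and was too low to be tested. The calls of Gm6763 and Gm12794 (0 and 3 counts against 41 and 94, adjusted p = 0.00808) did not hold without WT replicate 1, with adjusted p of 0.0509 and 0.0585, and that of Gm12794 did not hold without CtbpDKO replicate 2 (adjusted p = 0.0931) or in DESeq2 (adjusted p = 0.516).

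Sfmbt2 rose from a clear level in WT. It held 130 and 137 reads in WT against 4633 and 5637 in CtbpDKO, or 4.50 ± 0.275 CPM and 156 ± 24.0 CPM (SD, n = 2). The fold was 34.7 (log2 5.08, SE 0.14, adjusted p = 8.14e-11). Every CtbpDKO library stood far above both WT libraries. The fold holds for the WT libraries of this table only, since WT of the Pramel7 table had 30.3 ± 5.44 CPM (SD, n = 4). Gm20765, chosen after its values were seen, held 16 and 12 reads in WT against 913 and 936 in CtbpDKO, 59.6-fold higher (log2 5.85, SE 0.35, adjusted p = 6.93e-08). Spesp1 was 19.5-fold higher (4 and 2 counts against 59 and 70, adjusted p = 0.0022). Cacna1s was 11-fold higher (6 and 10 against 93 and 104, adjusted p = 0.0016). Fam124a was 7.61-fold higher (5 and 6 against 44 and 49, adjusted p = 0.00185), so its smaller fold still left the groups apart. Dmrtc1c1 and Dmrtc1c2 were 3.12-fold and 2.87-fold higher, with adjusted p of 0.00574 and 0.00447. Without WT replicate 2 those became 0.0641 and 0.0506, and neither copy was called. Rps27a-ps2 and Rpl7-ps7 were not called (adjusted p = 0.616 and 0.209), and the counts of Rps27a-ps2 in WT, 7082 and 1564, enclosed those in CtbpDKO, 3127 and 3977.

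**Figure D2:**
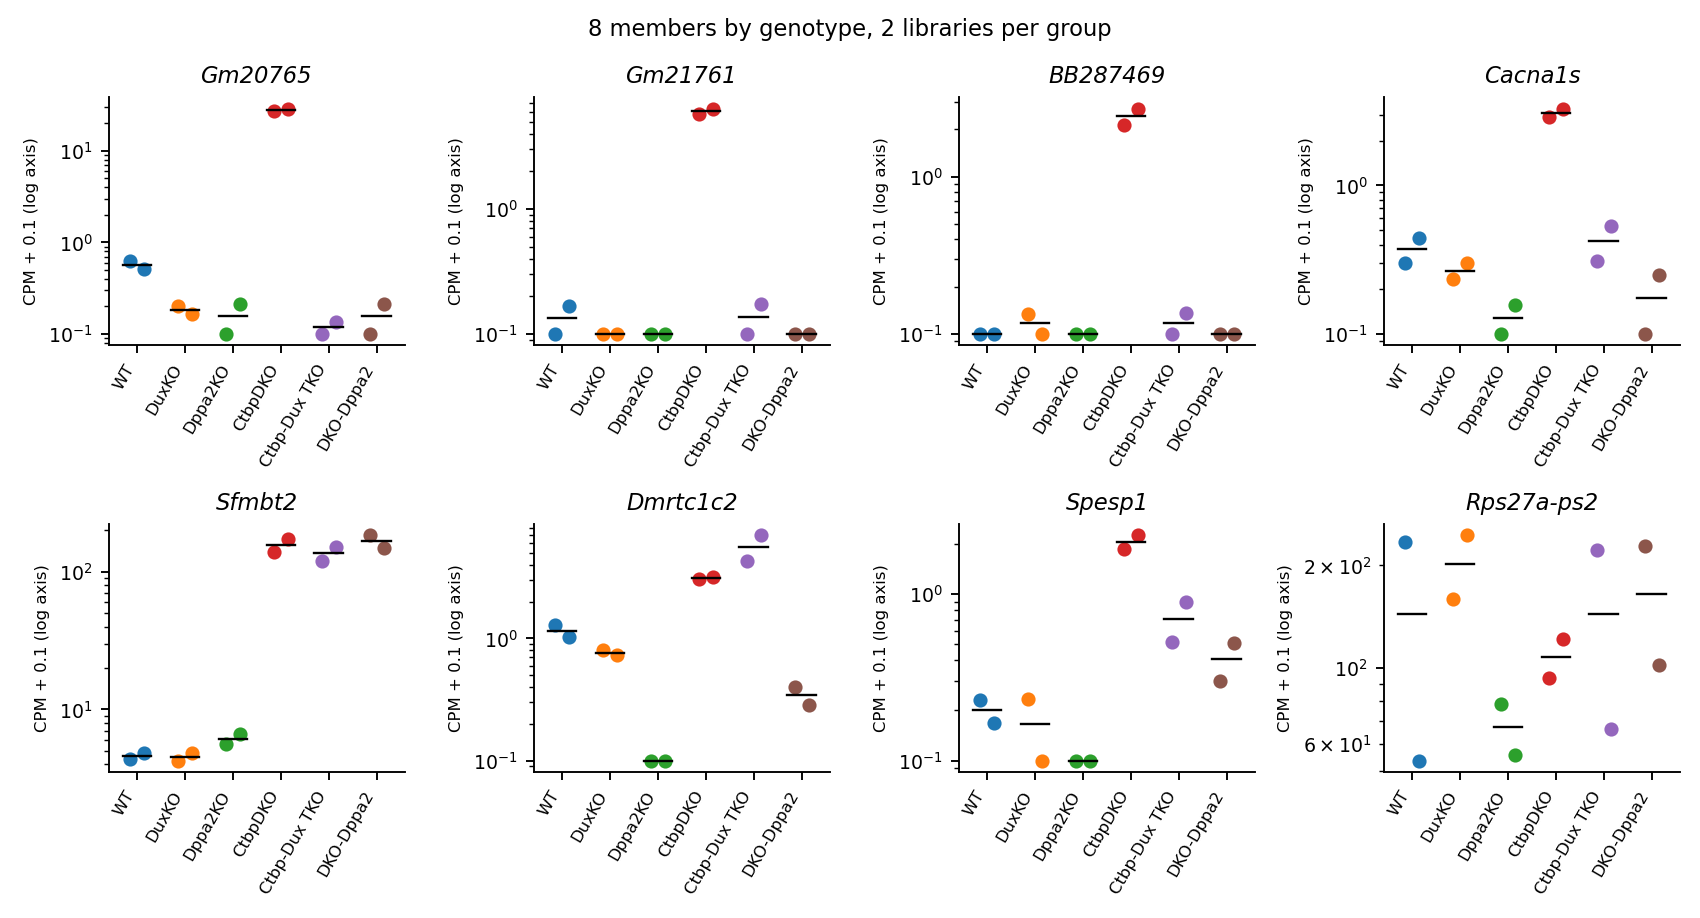
CPM + 0.1 (vertical axis, log scale) of 8 members in every library of the genotype table, with groups along the horizontal axis, 2 points per group and a bar at their mean. Gm20765, Gm21761 and BB287469 were high in CtbpDKO libraries only, Sfmbt2 was high in all 3 Ctbp knockout groups, and Rps27a-ps2 varied within groups.

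A large share of the members were nearly silent in Ctbp-Dux TKO cells. Against CtbpDKO, 28 of the 67 were called lower in Ctbp-Dux TKO and 3 higher, where 4.54% of all tested genes were called lower (5.83% of those with a day 0 mean of at least 1 CPM) and 3.6% higher. The 28 held 13 protein-coding members, 8 pseudogenes and 7 unmatched members. Of the 43 members higher in CtbpDKO than in WT, 27 had at most 3 counts in each Ctbp-Dux TKO library. Both contrasts use the same CtbpDKO libraries, and 26 of the 28 had passed the filter only through them. Low counts in nearly all other libraries were therefore built in for those 26. The share of members called lower cannot be compared with that of all tested genes. The count was sensitive to the libraries: it was 10 and 8 without CtbpDKO replicates 1 and 2, and 10 and 15 without Ctbp-Dux TKO replicates 1 and 2. DESeq2 fitted over all 12 libraries called 5 lower and 2 higher, and DESeq2 fitted to these 2 groups alone called 31 lower and 2 higher.

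Gm21761 held 190 and 204 reads in CtbpDKO against 0 and 2 in Ctbp-Dux TKO, at least 51.1-fold lower (adjusted p = 0.000389). BB287469 had 68 and 85 against 0 and 1, at least 19.9-fold lower (adjusted p = 0.00376), and Tmem92 had 58 and 75 against 0 and 0, at least 17.3-fold lower (adjusted p = 0.00407). Gm20765 had 913 and 936 against 0 and 1, at least 240-fold lower (adjusted p = 4.76e-07). In these 4 genes the Ctbp-Dux TKO libraries held at most 2 counts. Gm6763 (43 and 38 against 0 and 0, adjusted p = 0.01), Gm8764 (52 and 44 against 0 and 0, adjusted p = 0.00728) and Cacna1s (93 and 104 against 5 and 12, adjusted p = 0.0101) were called lower as well. None of these 3 calls held without CtbpDKO replicate 1 (adjusted p = 0.089, 0.0773 and 0.0797) or without Ctbp-Dux TKO replicate 1 (adjusted p = 0.0768, 0.0585 and 0.0969). Without CtbpDKO replicate 2 the values were 0.0572 for Gm6763 and 0.069 for Cacna1s, and without Ctbp-Dux TKO replicate 2 Gm6763 had 0.062. Gm12794 had 41 and 94 counts against 0 and 6 (adjusted p = 0.0431), which became 0.122, 0.269 and 0.189 without CtbpDKO replicates 1 and 2 and Ctbp-Dux TKO replicate 1. Sp110 narrowly missed the threshold, with 34 and 44 counts against 2 and 5 (log2 -3.07, SE 0.87, adjusted p = 0.0501). Zfp352 had 8 and 16 counts against 0 and 0 and was not tested.

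Another group stayed expressed without Dux. Sfmbt2 had 2855 and 4218 counts in Ctbp-Dux TKO, 136 ± 23.2 CPM (SD, n = 2), against 156 ± 24.0 CPM in CtbpDKO (log2 -0.16, SE 0.11, adjusted p = 0.416). The libraries of both genotypes stood far above WT. Against the DuxKO cells, which have Ctbp and carried 125 and 142 counts, Sfmbt2 was 30.5-fold higher in Ctbp-Dux TKO (log2 4.89, SE 0.14, adjusted p = 6.18e-11). Dmrtc1c1 had 21 and 17 counts in DuxKO and 97 and 170 in Ctbp-Dux TKO, 8.05-fold higher (adjusted p = 5.8e-05), and its neighbour Dmrtc1c2 was 8.32-fold higher (adjusted p = 1.96e-05). Spesp1 had 4 and 0 counts against 10 and 22 (9.13-fold, adjusted p = 0.0175), and Fam124a had 10 and 6 against 22 and 19 (3.01-fold, adjusted p = 0.0385). In these 4 genes the Ctbp-Dux TKO libraries lay above both DuxKO libraries. Spesp1 and Fam124a stood below their CtbpDKO means of 1.96 and 1.41 CPM, at 0.606 and 0.803 CPM in Ctbp-Dux TKO. Neither of those differences was called (adjusted p = 0.159 and 0.375). In this contrast 17 of the 67 members were called higher and 0 lower, against a background over all tested genes of 21.4% higher and 19.6% lower. The share of members called higher, 25.4% of all 67, cannot be compared with this background. Of the 64 tested members, 33 had passed the filter only through CtbpDKO. Those with 0 counts in every library of both groups could not be called. Without adjustment 18 were higher and 1 lower, and DESeq2 called 16 higher and 0 lower. Without Ctbp-Dux TKO replicate 2, 1 member was called lower, and a fit of only these 2 groups called 3 lower.

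The 17 members held low-count genes and genes low in DuxKO. Abcb5, Apol7b (an apolipoprotein L gene) and Pramef25 had 0 counts in both DuxKO libraries and between 2 and 12 in Ctbp-Dux TKO. Their folds over DuxKO were at least 2.58, 2.03 and 2.40, with adjusted p of 0.0291, 0.0486 and 0.0296. In CtbpDKO the same genes had 20 and 31, 28 and 40, and 18 and 30 counts. A set of predicted genes was low in DuxKO itself. Gm10800 had 189 and 186 counts in WT, 4 and 11 in DuxKO, 634 and 911 in CtbpDKO and 664 and 825 in Ctbp-Dux TKO. Gm20541 had 94 and 54 in WT, 0 and 2 in DuxKO, 27 and 63 in CtbpDKO and 18 and 40 in Ctbp-Dux TKO. Gm7896, Gm21738 and Gm48222 had the same low DuxKO values (6 and 2, 2 and 0, and 3 and 4 counts) with 128 and 148, 129 and 122, and 61 and 50 counts in Ctbp-Dux TKO. Across these 5 genes the DuxKO libraries were the lowest of all 12. These predicted genes, and Abcb5, Apol7b and Pramef25, were chosen after their values were seen.

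Those genes also set the contrasts of DuxKO with WT and the interaction. DuxKO against WT in the genotype table called 6 members lower (Gm20765, Gm10800, Gm20541, Gm7896, Gm21738 and Gm48222) and 0 higher, against 9.56% and 7.94% of all genes. Without adjustment 7 were lower and 0 higher, and DESeq2 called 6 and 0. The interaction, which asks whether the difference between Ctbp knockout cells and others depends on Dux, was called for 10 members, against 19.5% of all genes. It had no usable estimate (SE above 1000) in 24 of the 64 tested members, each with 0 counts in both libraries of a group. All 24 were called higher in CtbpDKO than in WT and 21 lower in Ctbp-Dux TKO than in CtbpDKO, so the count of 10 leaves out those members and says nothing of them. The term was positive for Gm10800 (log2 4.94, adjusted p = 6.47e-06), Gm20541, Gm7896, Gm21738, Gm48222, Trim52 and Dmrtc1c2 (log2 1.52, adjusted p = 0.0383). It was negative for Gm20765 (log2 -7.78, adjusted p = 0.00331), Gm5576 and Gm8607. A negative term means that the rise with Ctbp knocked out was smaller where Dux was missing. The contrast and the interaction share their DuxKO libraries.

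Most of the raised members were also lower in DKO-Dppa2, where Dppa2 transcripts were reduced. In DKO-Dppa2 against CtbpDKO, 40 of the 67 were called lower and 1 higher, against 9.67% and 5.75% of all tested genes. Of the 40, 31 had passed the filter only through CtbpDKO. Low counts elsewhere were built in for those 31, so the share called lower cannot be compared with that of all tested genes. The 40 were 21 of 28 protein-coding members, 11 of 18 pseudogenes and 8 of 16 unmatched ones. Gm21761 and BB287469 had 0 counts in both DKO-Dppa2 libraries, at least 45.6-fold and 17.7-fold lower than in CtbpDKO (adjusted p = 0.000208 and 0.00173). Tmem92 had 2 and 1 counts, at least 15.4-fold lower (adjusted p = 0.00763). Cacna1s had 0 and 4 counts against 93 and 104, a log2 difference of -4.92 (SE 0.80, adjusted p = 0.00132). In these 4 genes no DKO-Dppa2 library held more than 4 counts. Without CtbpDKO replicates 1 and 2 the lower calls numbered 21 and 14, and without DKO-Dppa2 replicates 1 and 2 they numbered 19 and 14. Whether this count differs from that in Ctbp-Dux TKO was not tested.

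The Dmrtc1c copies were present in Ctbp-Dux TKO and low in DKO-Dppa2. Dmrtc1c1 held 102 and 98 reads in CtbpDKO, 97 and 170 with Dux also lost, but 6 and 5 in DKO-Dppa2. Dmrtc1c2 had 99 and 101, 101 and 190, and 6 and 5. Both were lower in DKO-Dppa2 than in CtbpDKO by 3.51 on the log2 scale (adjusted p = 0.000455 and 0.000219). In Dppa2KO cells both had 0 counts, against 38 and 20 and 36 and 27 in WT. Trim52, a tripartite motif gene, and Spesp1 had 0 counts in Dppa2KO as well, and Trim52 had 0 in both DKO-Dppa2 libraries against 18 and 54 in Ctbp-Dux TKO. Dppa2KO against WT called 5 members lower (Gm20765, Gm20541, Dmrtc1c1, Dmrtc1c2 and Trim52) and 2 higher (Sfmbt2 and Gm17814), against 8.69% and 7.67% of all genes. The lower calls numbered 3 without WT replicate 1 and 2 without Dppa2KO replicate 1. The higher calls numbered 1 without WT replicate 1, WT replicate 2 or Dppa2KO replicate 2.

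With Dppa2 reduced in both arms, 7 of the 67 members (10.4%) were called higher in DKO-Dppa2 than in Dppa2KO and 1 (1.49%) lower. Of all tested genes 15.2% were called in each direction. These shares cannot be compared, since 33 of the 64 tested members had passed the filter only through CtbpDKO. Members with 0 counts in every library of both groups could not be called. The 7 were Sfmbt2, Spesp1, Dmrtc1c1, Dmrtc1c2, Gm10800, Gm24187 and Gm24806. Sfmbt2 had 194 and 235 counts in Dppa2KO and 3660 and 4028 in DKO-Dppa2, 6.0 ± 0.743 and 167 ± 23.9 CPM (SD, n = 2). It was 27.8-fold higher (log2 4.88, SE 0.13, adjusted p = 6.43e-11). Its log2 difference between cells with and without the Ctbp knockout was thus 5.08 with both genes intact, 4.89 without Dux and 4.88 with Dppa2 reduced. Spesp1 had 0 counts in Dppa2KO and 4 and 11 in DKO-Dppa2 (at least 3.63-fold, adjusted p = 0.00776). The Dmrtc1c copies were at least 2.90-fold higher (0 counts against 6 and 5, adjusted p = 0.00343 and 0.00183), a difference between silence and a few counts.

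**Figure D3:**
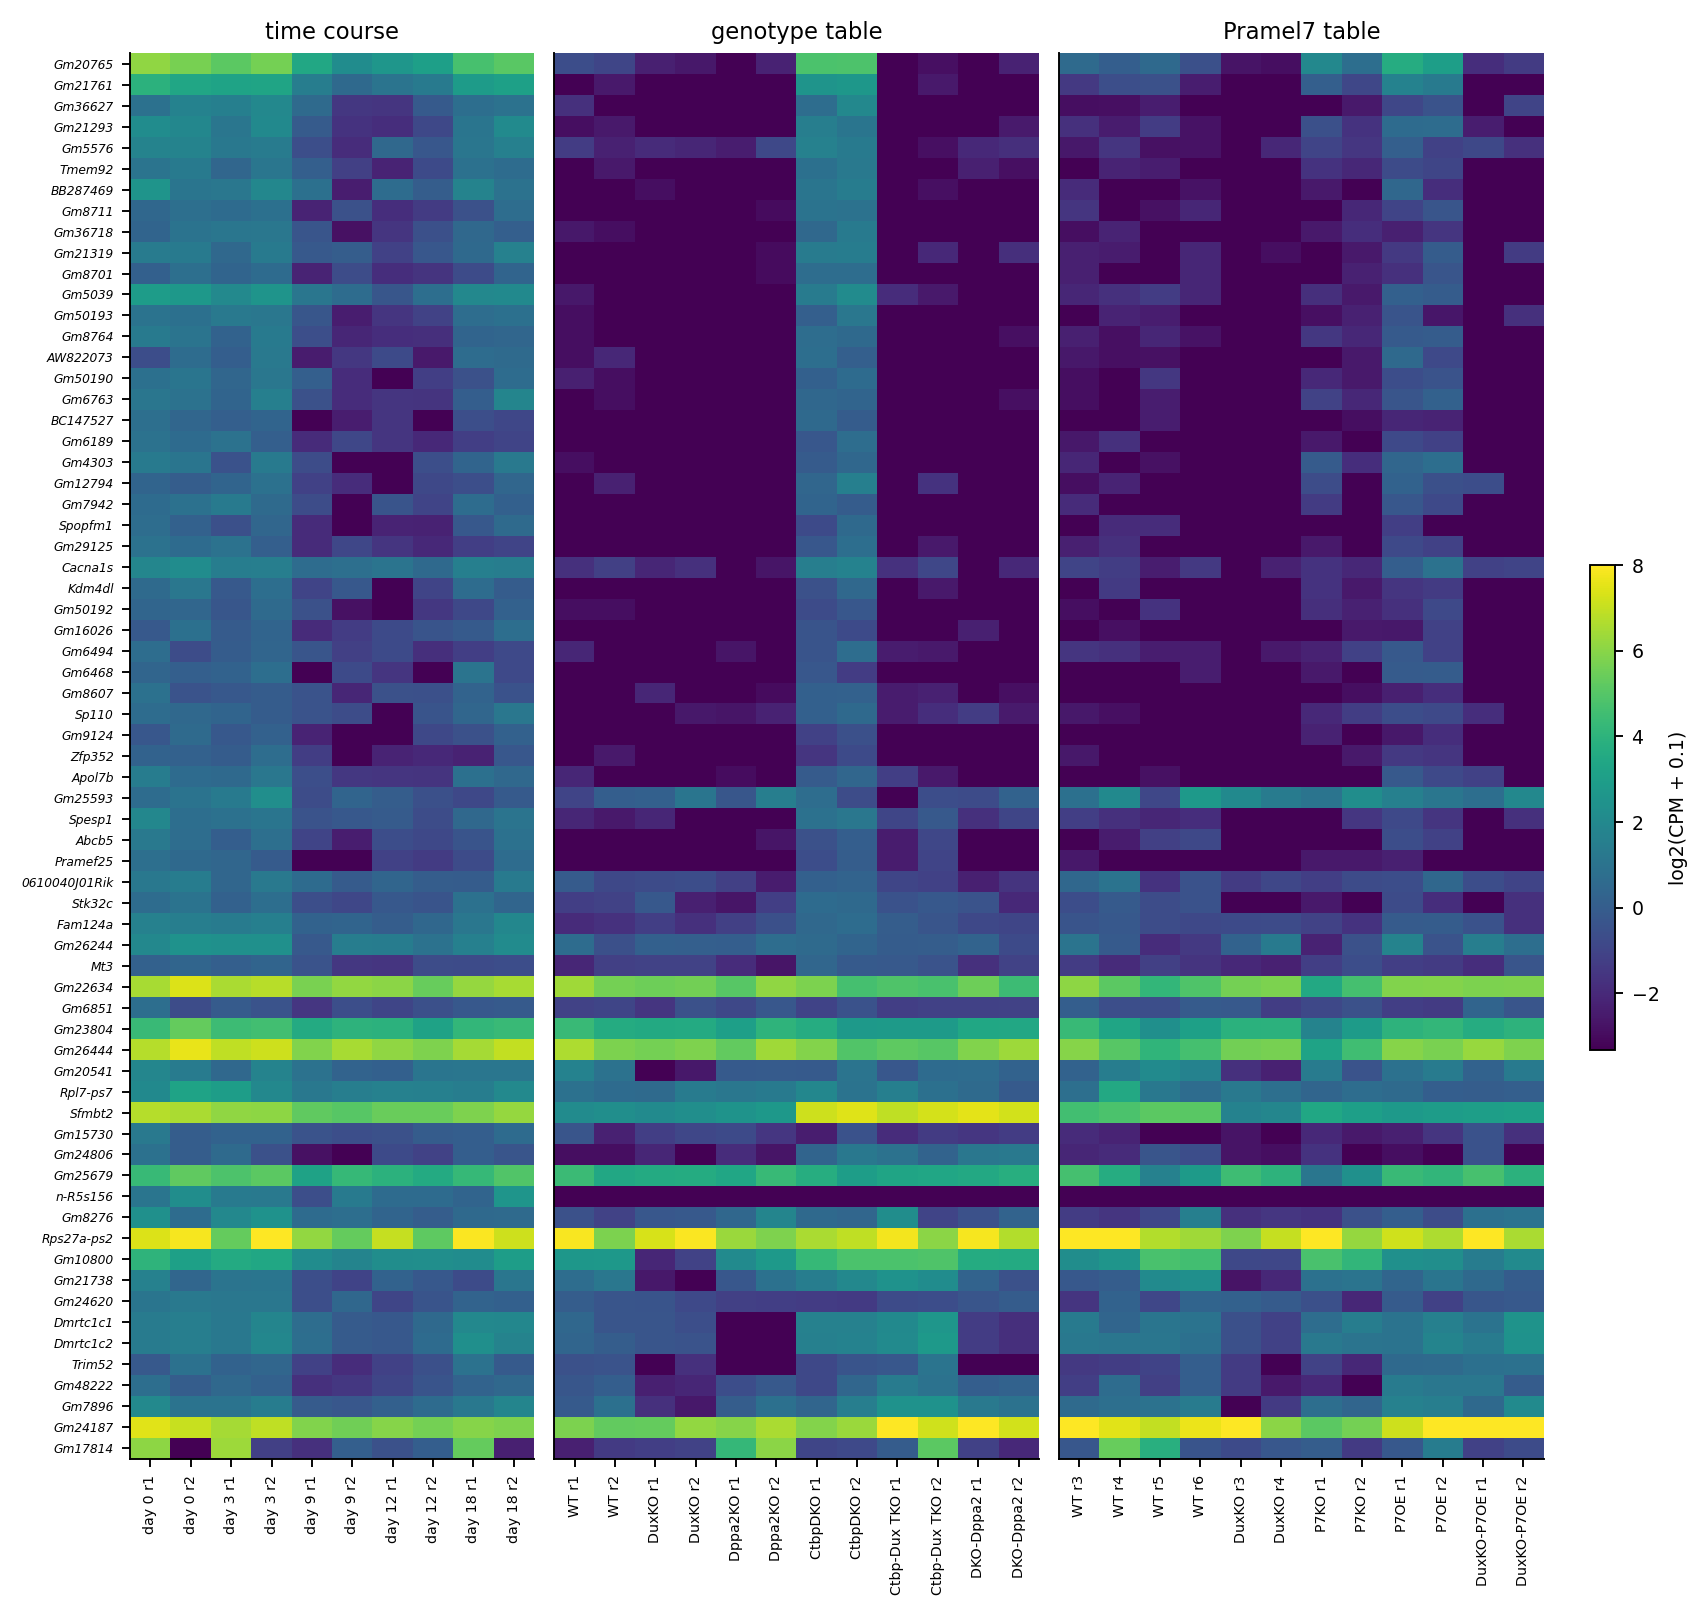
Level of each of the 67 members (rows) in every library of the 3 tables (columns, r for replicate) as log2(CPM + 0.1) on the colour scale, which is capped at 8, with rows ordered by the difference between Ctbp-Dux TKO and CtbpDKO. The upper rows were bright in CtbpDKO and dark in the other genotypes, where 30 to 39 members had at most 3 counts in each library of a group.

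Silence was counted as well as calls. Members with at most 3 counts in every library numbered 32 in WT, 37 in DuxKO, 39 in Dppa2KO, 1 in CtbpDKO, 30 in Ctbp-Dux TKO and 35 in DKO-Dppa2. Over expressed genes this share was between 0.0618% and 1.25%. The 1 member silent in CtbpDKO was n-R5s156, a ribosomal RNA gene with 0 counts in every library of both other tables. Of the 67, 24 had at most 3 counts in every library of the 5 groups other than CtbpDKO. The median log2 ratios over the members (pseudocount 0.1 CPM) were -2.22 for Ctbp-Dux TKO against CtbpDKO, -2.85 for DKO-Dppa2 against CtbpDKO and 0.0 for Ctbp-Dux TKO against DuxKO. Over expressed genes they were -0.08, -0.18 and -0.01.

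Some members were also higher with Pramel7 overexpressed, in cells that have Ctbp. Pramel7 is a Prame-family gene active in early embryos and naive stem cells, and it had 435 and 431 counts in P7OE against 2 to 4 in WT. Here 45 of the 67 members could be tested among 20161 genes. In P7OE against WT, 15 were called higher and 1, Sfmbt2, lower, against 11.0% and 8.9% of all tested genes. Of the 15, 12 had fewer than 2 libraries at the filter's level outside P7OE and were tested only because they were high there. Of the 30 tested members that passed through other libraries, 3 were called higher, a share near the 11.0% of all tested genes. Leaving out P7OE replicates 1 and 2 left 3 and 4 higher calls. With WT replicates 3 and 4 only there were 10 higher and 3 lower, and with WT replicates 5 and 6 only 19 and 3. Without WT replicates 3, 4 and 6 the lower calls were 3, 2 and 3.

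Gm20765 had 43, 24, 32 and 13 counts across the WT libraries against 390 and 137 in P7OE, or 1.08 ± 0.398 CPM (SD, n = 4) and 10.5 ± 3.47 CPM (SD, n = 2). It was 9.67-fold higher (log2 3.23, SE 0.35, adjusted p = 6.03e-05). The lowest P7OE library was above every WT library. Gm21761 had 8, 14, 14 and 2 counts across the WT libraries against 95 and 40 in P7OE, 7.26-fold higher (adjusted p = 0.00482), or adjusted p = 0.0662 without P7OE replicate 1. Gm4303, chosen after its values were seen, had 4, 0, 1 and 0 against 37 and 27, 32.0-fold higher (adjusted p = 0.00558). Cacna1s had 12, 8, 2 and 6 counts against 28 and 31 (5.13-fold, adjusted p = 0.0273). Sp110 had 2, 1, 0 and 0 against 16 and 8 (at least 4.15-fold, adjusted p = 0.0177). Gm6763 had at most 2 counts in WT against 21 and 18, at least 7.27-fold higher (adjusted p = 0.00483). These genes did not overlap between groups, but all rest on few counts. Without P7OE replicate 2 the adjusted p was 0.315 for Cacna1s, 0.107 for Sp110 and 0.0652 for Gm6763. Without P7OE replicate 1 it was 0.0691 for Cacna1s and 0.129 for Sp110, and Cacna1s also missed without WT replicate 5 (0.0543). Gm12794, with 1, 3, 0 and 0 counts against 32 and 10 (adjusted p = 0.0337), missed the threshold without either P7OE library (0.223 and 0.115) and without WT replicates 3, 5 and 6 (0.0614, 0.0748 and 0.0508).

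Sfmbt2 went the other way. It held 718, 699, 812 and 781 reads in the WT libraries, against 205 and 127 in P7OE, 290 and 235 in P7KO and 64 and 99 in DuxKO. Its WT level in this table, 30.3 ± 5.44 CPM (SD, n = 4), stood above the 4.50 ± 0.275 CPM of WT in the genotype table, which was counted separately. Sfmbt2 was lower than WT in P7OE (log2 -2.09, SE 0.16, adjusted p = 4.3e-06), in P7KO (log2 -1.82, adjusted p = 1.83e-05) and in DuxKO (log2 -3.10, adjusted p = 7.52e-07), all against the same WT libraries. In the genotype table DuxKO and WT had nearly the same counts, 125 and 142 against 130 and 137. The WT libraries of the 2 tables therefore differed in this gene by more than the spread within either table, and which culture or batch they came from is not given in the sources used here.

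In cells that lack Dux, most of the members raised in P7OE were at or near 0. Of the 15 members higher in P7OE, 10 had at most 3 counts in each DuxKO-P7OE library, against 1.85% of expressed genes. These shares cannot be compared, since 12 of the 15 had passed the filter only through P7OE. Low counts in nearly all other libraries, DuxKO-P7OE among them, were built in for those 12. The DuxKO-P7OE libraries were the shallowest, with 11089600 and 10123058 total counts against 30135341 and 17061530 in P7OE. The same 3 counts therefore stand for a higher CPM there, and the part of depth was not tested. Gm21761 and Gm6763 had 0 counts in both DuxKO-P7OE libraries, and Gm20765 had 2 and 3. No contrast of P7OE with DuxKO-P7OE was run. DuxKO-P7OE against DuxKO called 8 members higher and 0 lower, against 11.6% and 9.83% of all tested genes. The 8 were Sfmbt2 (64 and 99 counts against 90 and 86, 2.49-fold by CPM, adjusted p = 0.000774), Gm10800, Gm20541, Gm7896, Gm48222, Dmrtc1c1, Dmrtc1c2 and Trim52. Dmrtc1c2 had 12 and 10 counts in DuxKO and 28 and 54 in DuxKO-P7OE, 8.32-fold higher (adjusted p = 0.00117). Of these 8, only Sfmbt2 was called in P7OE against WT, where it was lower. Without adjustment 14 were higher and 0 lower, and DESeq2 called 10 and 0. Leaving out DuxKO replicate 4 left 3 calls, DuxKO-P7OE replicate 1 left 5 and DuxKO-P7OE replicate 2 left 3.

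**Figure D4:**
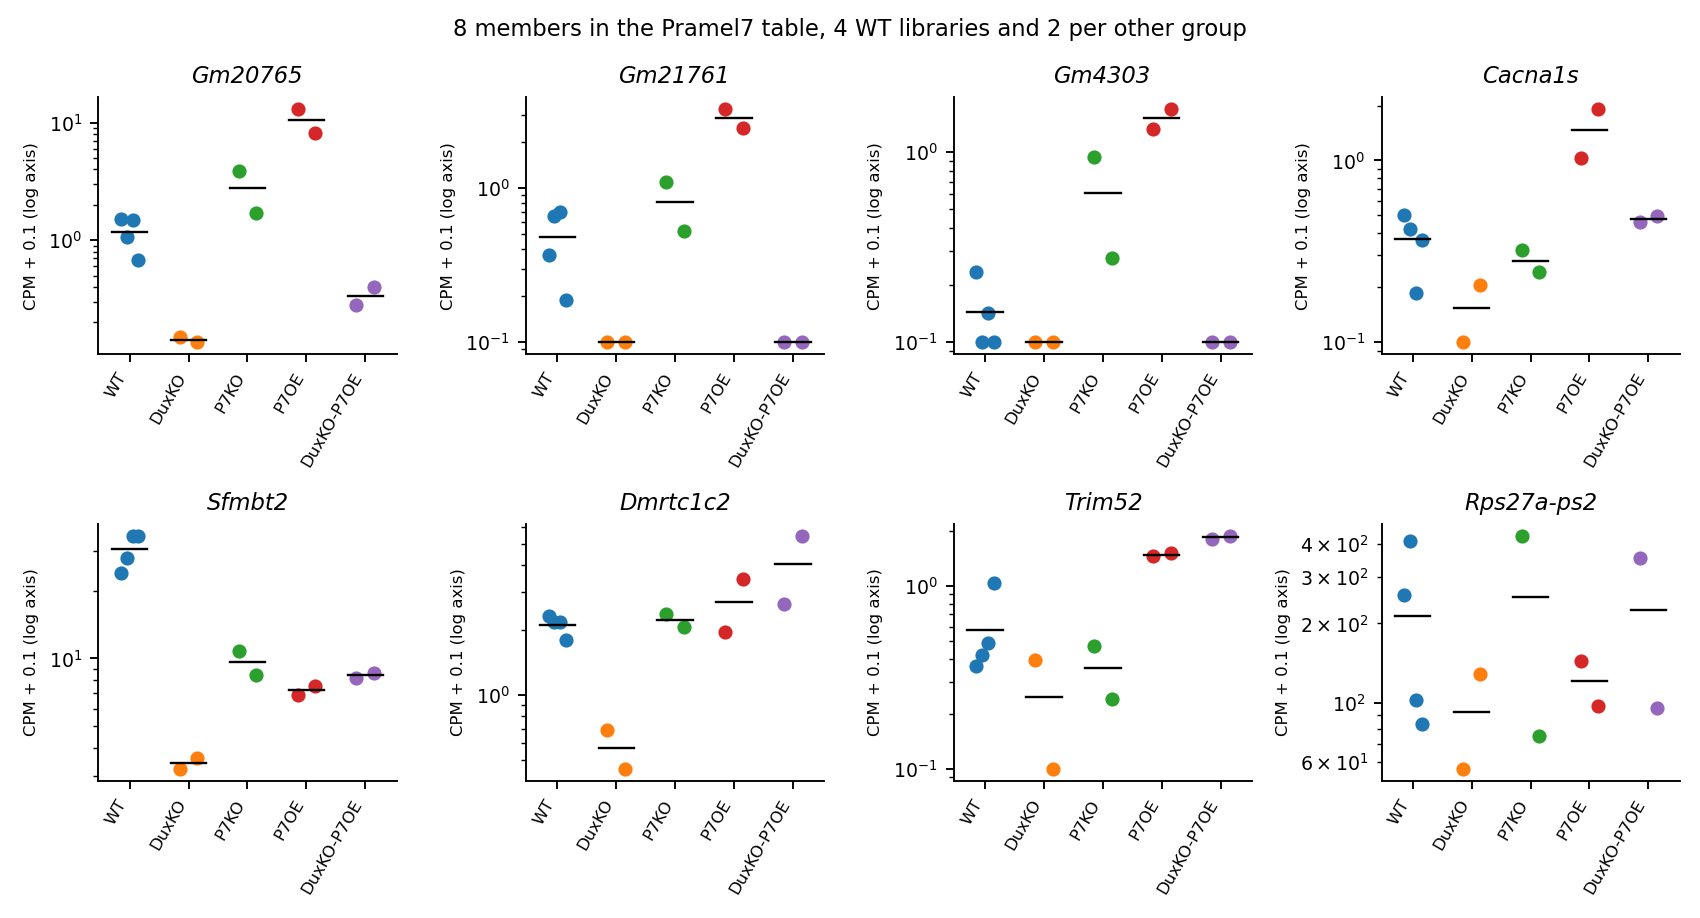
CPM + 0.1 (vertical axis, log scale) of 8 members in every library of the Pramel7 table, with groups along the horizontal axis, 1 point per library and a bar at the mean. Gm20765, Gm21761 and Gm4303 were highest in P7OE and near 0 in both groups without Dux, and Sfmbt2 was highest in WT.

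DuxKO against WT in this table called 11 of the 45 tested members lower (16.4% of all 67) and 0 higher. Of all tested genes 8.91% were called lower and 7.76% higher. The 11 included Sfmbt2, Gm20765, Gm21761, Gm5039, the Dmrtc1c copies and Stk32c, a serine/threonine kinase gene with 0 counts in both DuxKO libraries and 12 to 21 in WT. Without adjustment 16 were lower and 0 higher, and DESeq2 called 13 and 0. The lower calls numbered 7 without DuxKO replicate 3 and 4 without DuxKO replicate 4, and with WT replicates 5 and 6 only, 5 members were called higher. P7KO against WT called Sfmbt2, Stk32c and Gm48222 lower and 0 members higher, against 5.55% and 3.93% of all genes. Without adjustment 12 were lower and 4 higher, and DESeq2 called 5 and 0. Lower calls numbered 1 without WT replicate 4 or either P7KO replicate, 7 without WT replicate 5, and 11 with WT replicates 3 and 4 only. Higher calls numbered 2 without WT replicate 3. Pramel7 itself had 0 and 3 counts in P7KO against 2 to 4 in WT, so its loss could not be seen in these counts.

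Some members differed widely between libraries of 1 group. Gm17814, a pseudogene, had 66.7 and 0 CPM at day 0 and 80.4 and 0.347 CPM at day 3. It also had 657 and 2361 counts in Dppa2KO, 21 and 986 in Ctbp-Dux TKO, 1048 in WT replicate 4 and 331 in WT replicate 5, and at most 44 in the other libraries of both tables. Its call as higher in Ctbp-Dux TKO than in CtbpDKO (adjusted p = 0.0171) became 0.567 without Ctbp-Dux TKO replicate 2, and 0.131 and 0.11 without CtbpDKO replicates 1 and 2. Gm24187, an unmatched member, had 10642 and 4046 counts in DKO-Dppa2 and 977 to 28808 counts in the Pramel7 table. The DuxKO libraries of that table alone held 11646 and 1824 counts. Gm24187 was nonetheless called between genotypes. It was higher in Ctbp-Dux TKO (6123 and 3991 counts) than in CtbpDKO (1958 and 2565, adjusted p = 0.0437) and DuxKO (1196 and 2121, adjusted p = 0.00529). It was also higher in DKO-Dppa2 than in CtbpDKO (adjusted p = 0.00374) and Dppa2KO (adjusted p = 0.00284). The tight cluster of spliceosomal RNA genes at chr12:54710308-54729765 (Gm22634, Gm25679 and Gm26444) varied within groups: Gm22634 held 2493 and 1432 reads in WT against 1811 and 831 in CtbpDKO. These are members by the rule, but none of the 3 was called in CtbpDKO against WT. All of these were chosen after their values were seen.

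For comparison, the members are set beside genes that fell promptly, by day 3, and were back by day 12. That set (at most 0.5 of day 0 at days 3 and 9 and at least 0.67 at day 12) held 132 genes. In Ctbp-Dux TKO against CtbpDKO, 41.8% of the 67 members and 2.27% of the 132 were called lower, against 4.54% of all tested genes. Of those 28 members, 26 had passed the filter only through CtbpDKO, and this was not counted for the 132. These shares therefore cannot be compared. In Ctbp-Dux TKO against DuxKO, 25.4% of the members and 75.8% of the 132 were called higher, against 21.4% of all tested genes. Members with 0 counts in every library of both groups could not be called there, and 33 of the 64 tested members had passed the filter only through CtbpDKO. The 25.4% therefore cannot be compared with the 75.8% or the 21.4%. Both sets were higher in CtbpDKO than in WT with shares of 64.2% and 59.1%. Of the 11 left-out Zscan4 and Usp17l genes, 100% were higher in CtbpDKO and 100% lower in Ctbp-Dux TKO than in CtbpDKO. In Ctbp-Dux TKO against DuxKO they had 0 edgeR calls, and whether they held counts to call there was not examined. Both sets were chosen from the time course, and the differences between them were not tested.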

How the data were processed

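RNA was measured in 34 libraries of E14tg2a cells, and 6 bisulfite libraries were not analysed here. The authors deposited raw counts per gene symbol, 1 column per library, with no normalization. The submitters' processing notes name Trim Galore, HISAT2, featureCounts and mm10 without roles, order or versions, and strand settings and the treatment of multi-mapping reads are not given in the sources used here. Libraries were prepared with the Collibri stranded kit per the labels. All count columns matched 1 labelled sample, leaving 0 unmatched. A second genotype table of 8 libraries held equal values at 442208 of 442208 places and was not used again.

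CPM were computed as counts over the column total, times 1000000. Each of the other tables was fitted over all its libraries with edgeR 4.0.16 in R 4.3.3: filterByExpr, TMM factors, group as the only term, quasi-likelihood test and Benjamini-Hochberg adjustment over all tested genes, with calls at an adjusted p below 0.05. Printed SE values are the log2 fold change divided by the square root of the quasi-likelihood F. No test was run on the time course. A fold against a group with at most 3 counts in every library is a lower bound, set at 3 counts per library. Ratios summarised over members used a pseudocount of 0.1 CPM. Scripts were tested on simulated data and used Python 3.11.15, pandas 2.3.3 and matplotlib 3.10.9. Alternatives were DESeq2 1.42.0, other scaling factors, no filter, only the groups compared, a replicate block, other rule thresholds and each library left out. DESeq2 on only the groups compared, the members with late libraries all below early ones, and the short Dux motif were added after the data were seen.

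Libraries of a group differed by more than counting noise, with a chi-square per gene between 14.31 and 166.4, so none was merged. Reads carry no molecular identifiers, so bounds cover counting error only. Members and gene lists were chosen with earlier results of these data known. Named members were those on a gene list, the 8 highest at day 0 (predicted symbols and small RNAs skipped, as in the next steps), up to 3 per direction with the largest called change, non-overlapping libraries and at least 50 counts in 4 contrasts, and the 4 highest and 4 lowest by day 18 over day 0 among members with at least 5 CPM. Every other member printed with values was chosen after its values were seen, as were the shared promoter stretches. Promoters, positions and gene types are RefSeq's for GRCm38.p6.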

Additional observations from a re-analysis of the deposited data

Results flagged for a closer look

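In the Pramel7 table, the 4 WT libraries of 14 named members were checked for a library far from the others, and 1 was found; chance alone gives about 1 in 20. Rpl7-ps7 had 11.4 CPM (287 counts) in WT replicate 4, against 50, 52 and 34 counts in the other WT libraries.

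Of the 10 members called in the interaction of Ctbp and Dux loss (edgeR), 2 were checked here by name: Dmrtc1c2, named by the rule, and Gm20765, chosen after its values were seen. In both, the difference made by Ctbp loss was not the same with and without Dux. Gm20765 had an adjusted p of 0.00331 (log2 -7.78, SE 1.51): it was high in both CtbpDKO libraries and held at most 3 counts in the 4 libraries without Dux. Dmrtc1c2 had an adjusted p of 0.0383 (log2 1.52, SE 0.47), with 36 and 27 counts in WT, rising to 99 and 101 in CtbpDKO, against 21 and 19 in DuxKO and 101 and 190 in Ctbp-Dux TKO.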

How the results depend on the processing

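Counts of members called, written as higher and lower, moved as follows, and the causes were not tested unless the setting removes genes or samples by construction. Leaving out 1 library at a time gave 26 to 33 and 0 to 3 for CtbpDKO against WT, 0 to 1 and 8 to 15 for Ctbp-Dux TKO against CtbpDKO, 12 to 14 and 0 to 1 for Ctbp-Dux TKO against DuxKO, 1 and 14 to 21 for DKO-Dppa2 against CtbpDKO, 6 to 7 higher for DKO-Dppa2 against Dppa2KO, 4 to 5 lower for DuxKO against WT of the genotype table, 7 to 9 in the interaction, and 1 to 2 and 2 to 6 for Dppa2KO against WT. It gave 3 to 15 and 1 to 3 for P7OE against WT, 3 to 7 higher for DuxKO-P7OE against DuxKO, 4 to 13 lower for DuxKO against WT of the Pramel7 table, and 0 to 2 and 1 to 7 for P7KO against WT. Only 7 members met the rule in each replicate alone. Of these, 6 were higher in CtbpDKO than in WT, 0 and 5 were called in Ctbp-Dux TKO against CtbpDKO, 1 higher in Ctbp-Dux TKO against DuxKO, 0 and 5 in DKO-Dppa2 against CtbpDKO, and 0 in the remaining contrasts. The interaction also gave 0, but 5 of the 6 tested had no usable estimate.

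With no filter on low counts, 5 were lower in CtbpDKO than in WT, 5 were higher in Ctbp-Dux TKO than in CtbpDKO, 5 lower in Ctbp-Dux TKO than in DuxKO, 3 higher in DKO-Dppa2 than in CtbpDKO and 4 lower in DKO-Dppa2 than in Dppa2KO. Without that filter DuxKO against WT gave 1 and 10 in the genotype table and 3 higher in the Pramel7 table, Dppa2KO against WT 5 and 10, P7OE against WT 5 lower, DuxKO-P7OE against DuxKO 13 higher and P7KO against WT 2 and 10. DESeq2 over all libraries called 5 lower in Ctbp-Dux TKO than in CtbpDKO, 2 lower in P7OE and 5 lower in P7KO. A fit of only the groups compared, by edgeR or DESeq2, called 3 lower in Ctbp-Dux TKO than in DuxKO. For Dppa2KO against WT, 1 was higher with upper quartile factors, with a log2 fold change of at least 1 and among the 59 members whose late libraries all lie below the early ones; those 59 gave 0 lower in DKO-Dppa2 against Dppa2KO. WT replicates 3 and 4 only gave 3 lower in P7OE and 1 and 11 in P7KO; WT replicates 5 and 6 only gave 3 lower in P7OE and 5 higher in DuxKO.

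The rule on TMM-scaled CPM found 86 genes, all 67 among them. Of the 86, 7 were higher in Ctbp-Dux TKO and 2 in DKO-Dppa2 than in CtbpDKO, 11 higher in DKO-Dppa2 than in Dppa2KO, 11 lower in DuxKO than in WT of the genotype table and 1 higher in that of the Pramel7 table, 14 and 1 were called in DuxKO-P7OE, and 1 and 5 in P7KO. Day 3 thresholds of 0.8 and 0.5 gave 36 and 115 members, late thresholds of 0.4 and 0.33 gave 39 and 31, and day 0 floors of 2 and 5 CPM gave 35 and 13. Replicate 1 alone gave 53 members (17 shared) and replicate 2 alone 98 (41 shared). Of the 67, each replicate alone put 25 to 43 at or above 0.67 of day 0 at day 18.

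With the replicate block the counts were 42 higher for CtbpDKO against WT, 23 lower for Ctbp-Dux TKO against CtbpDKO, 15 and 1 for Ctbp-Dux TKO against DuxKO, and 38 lower for DKO-Dppa2 against CtbpDKO. The replicate numbers did not pair the samples: deviations of same-numbered libraries correlated between -0.06 and 0.03. For named members, 401 alternatives kept the direction and the call, 51 kept the direction and missed the threshold, and 0 reversed. Too low to be tested were 3 members in the genotype table and 22 in the Pramel7 table. Among them n-R5s156 had 40 and 105 counts at day 0 but 0 in every library of both other tables, and why was not tested.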
